A study of Mus musculus with 96 samples.

Results

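Oxidative phosphorylation is carried out by 5 protein complexes of the inner mitochondrial membrane. Complexes I and II pass electrons from NADH and succinate to ubiquinone, complex III passes them on to cytochrome c and complex IV to oxygen, and complexes I, III and IV pump protons whose return flow drives ATP synthesis by complex V. Most subunits are encoded in the nucleus and imported, so their mRNAs are read together with those of the rest of the cell, and assembly factors help to build the complexes without staying in them. The genes described here were chosen by name, as symbols that begin with Nduf, Uqcr, Cox4 to Cox8 or Atp5, together with Sdha, Sdhb, Sdhc and Sdhd, and by reads in at least 5 cells. Of 92 such symbols among the 24057 genes of the table, 85 were kept, which leaves 43 genes of complex I, 4 of complex II, 8 of complex III, 13 of complex IV and 17 of complex V. Of all genes, 10630 had reads in 5 or more cells. Ndufa4, which carries a complex I name but is a subunit of complex IV, was counted with complex IV. The symbols also bring in 7 assembly factors of complex I, Cox7a2l, which joins complexes III and IV, and Atp5s and Atp5sl, which are not subunits of the ATP synthase. Of the 7 symbols not kept, the tissue or testis isoforms Cox4i2, Cox7a1, Cox7b2, Cox8b and Cox8c had reads in 0 of 95 cells, which allows a share of up to 3.16% of cells with a read, and Cox6b2 and Ndufa4l2 had reads in 1 cell each.

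The cells were EL4, a T-lymphoma line from a C57BL/6N mouse, infected with a GFP-marked vector that carried an shRNA. It was directed either at luciferase, as control (shLuc, WT), or at Ctcf (shCTCF, CTCF-KD). Cells with GFP were sorted and checked for knockdown after 5 days of infection, and the chosen populations were captured on the Fluidigm C1 system. Both groups therefore carry a vector and an shRNA, and no uninfected cells were compared. The cultures shLuc #1 and shCTCF #1 form experiment 1, and shLuc #2 and shCTCF #2 form experiment 2. The study's methods list 2 shRNAs against Ctcf and do not state which of them each culture carried. A difference of shRNA between shCTCF #1 and shCTCF #2 could not be told apart from one of experiment. Each culture held 24 cells on its own circuit, so within an experiment the condition cannot be told apart from the culture or its circuit, and n is 2 cultures per condition. The study asked how the level of CTCF, a DNA-binding protein that organizes chromatin loops, affects expression and its variation between cells.

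One cell of shLuc #2 with fewer than 3000 genes was left out, and 95 cells remained. Their recovered reads ranged from 41591 to 405404 per cell, with medians per culture between 131098 and 247586 and the lowest median in shCTCF #2. One cell of shCTCF #2 stood apart: it had 41591 reads, 3150 genes and reads for 43 of the 85 genes, while every other cell had at least 67 of them. Results that rest on this cell are given with and without it. The targeted gene Ctcf averaged 60.3 ± 76.8 TPM in shLuc #1, 16 ± 27.4 in shCTCF #1, 37.1 ± 45.5 in shLuc #2 and 44.9 ± 50 in shCTCF #2 (SD over cells). The log2 difference of Ctcf was -1.85 in experiment 1 and 0.27 in experiment 2. Ctcf was thus not lower in the library labelled shCTCF #2. In each experiment the gap was smaller than the SD over cells of the shLuc culture. The sorted populations had been chosen for their knockdown before capture, and directions in experiment 2 are those of the labels. All 11 T-cell markers listed were present in each culture, among them Cd3d, Cd3g and Lck, while 4 of 6 B-cell markers (Cd79b, Ms4a1 and Pax5 among them) and 3 of 4 erythroid markers were at 0 in all cells. Of 6 myeloid markers, Lyz2 and Adgre1 were at 0, and the summed level of the 6 averaged between 276 and 502 TPM per culture, chiefly from Fcer1g.

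RefSeq promoter windows, from 250 bases before to 50 bases after the start on GRCm38.p6, were matched for 72 of the 85 genes; those without one included Atp5a1, Cox4i1, Cox6a2, Cox6c, Ndufa2, Ndufaf6, Ndufb9, Ndufs1, Sdhc, Uqcrb, Uqcrc2 and Uqcrq. The windows were searched on both strands for motifs of factors known for the control of respiratory genes. GCATGCGC, the core bound by NRF1, was in 12 of the 72 windows (16.7%) and in 2.71% of all 32851 promoter windows of the table. AAGATGGCG, bound by YY1, was in 8 windows (11.1%) against 1.4% of all windows, and CCGGAAGT, an ETS site of the kind bound by GABPA, in 5 (6.94%) against 3.89%. The CCAAT box was in 30 windows (41.7%, all windows 37.4%) and the GC box GGGCGG in 31 (43.1%, all windows 35.7%). The NRF1 core lay in front of genes of all 5 complexes: Ndufa6, Ndufa8, Ndufa11, Ndufaf4, Ndufaf5, Sdhb, Uqcr11, Uqcrc1, Cox6a1, Atp5g2, Atp5k and Atp5l. A match describes letters in the window and is not evidence of binding. The 5 stretches here, each of 100 bases that end before the more upstream of the RefSeq and GENCODE starts, belong to genes described in the results and show each of the motifs but YY1, in capitals, read 5′ to 3′ on the gene's strand.
Ndufa6, chr15:82354323-82354422, minus strand: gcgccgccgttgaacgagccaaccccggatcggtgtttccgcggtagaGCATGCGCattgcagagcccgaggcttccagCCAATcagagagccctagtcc
Ndufa11, chr17:56717662-56717761, plus strand: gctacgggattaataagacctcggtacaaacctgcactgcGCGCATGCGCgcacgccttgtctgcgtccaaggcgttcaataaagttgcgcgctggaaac
Uqcr11, chr10:80406831-80406930, minus strand: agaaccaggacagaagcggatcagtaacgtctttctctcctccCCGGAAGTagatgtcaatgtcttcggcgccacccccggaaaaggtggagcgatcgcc
Atp5b, chr10:128083173-128083272, plus strand: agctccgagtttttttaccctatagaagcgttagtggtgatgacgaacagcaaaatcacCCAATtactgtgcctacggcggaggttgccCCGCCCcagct
Ndufaf2, chr13:108158626-108158725, minus strand: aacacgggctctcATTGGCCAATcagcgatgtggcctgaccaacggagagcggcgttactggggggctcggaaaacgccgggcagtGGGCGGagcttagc
The capitals mark the NRF1 core and a CCAAT box in Ndufa6, the NRF1 core on both strands in Ndufa11, the ETS site in Uqcr11, a CCAAT box and a reversed GC box in Atp5b, and CCAAT boxes on both strands and a GC box in Ndufaf2.

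Respiratory genes were among the most strongly expressed genes of these cells. Their median level was 564 TPM over all cells, against 17.2 TPM for all 11980 genes tested, and their median length of 758 bases was short against 2780 bases for all genes tested. TPM is a level per base of gene length, scaled to the same total in each cell. Together the 85 genes held 9.11% of the TPM in shLuc #1, 8.67% in shCTCF #1, 6.42% in shLuc #2 and 6.16% in shCTCF #2. Complexes I and IV held most of this, and complex II the least. The highest mean level over all cells was that of Cox6a1, a small subunit of complex IV, at 8403 TPM, followed by Uqcr11, Cox8a, Cox4i1 and Ndufb8 between 3546 and 3103 TPM. This order is of means over all cells and differed between cultures: Uqcr11 was below Cox4i1 in shLuc #2, and Ndufa3 was above Cox4i1 and Ndufb8 in shLuc #1. The lowest were Ndufs5 at 2.03 TPM and Ndufb4 at 5.69 TPM, both accessory subunits of complex I, with Ndufaf5 and Ndufaf6, assembly factors, at 7.09 and 7.45 TPM. The authors counted uniquely mapped reads only, and part of the sequence of some genes is shared with other genes or pseudogenes. Of the 50-base stretches of the longest coding transcript, 84.8% were also in transcripts of other genes for Atp5l, 47.9% for Atp5h, 37% for Ndufb4 and 31.1% for Ndufs5, while 37 of 84 genes shared none. Whether this lowers the values of the first group was not tested.

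The first question was whether the summed mRNA of each complex differed between CTCF-KD and WT cells. The conditions lay close together, whereas the experiments lay far apart. The sum over all 85 genes averaged 91116 ± 12344 TPM in shLuc #1 and 86734 ± 7207 in shCTCF #1 (SD over 24 cells each), and 64228 ± 7682 in shLuc #2 (23 cells) and 61597 ± 9772 in shCTCF #2 (24 cells). The log2 difference between the conditions was -0.071 in experiment 1 and -0.060 in experiment 2, while experiment 2 lay 0.50 below experiment 1 in shLuc and 0.49 below it in shCTCF. Both cultures of experiment 2 were thus below both cultures of experiment 1, and the conditions overlapped. The values of shCTCF #2 include the cell that stood apart, whose sum was 25123 TPM. Without it shCTCF #2 remained below shLuc #2, by a smaller gap.

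**Figure D1:**
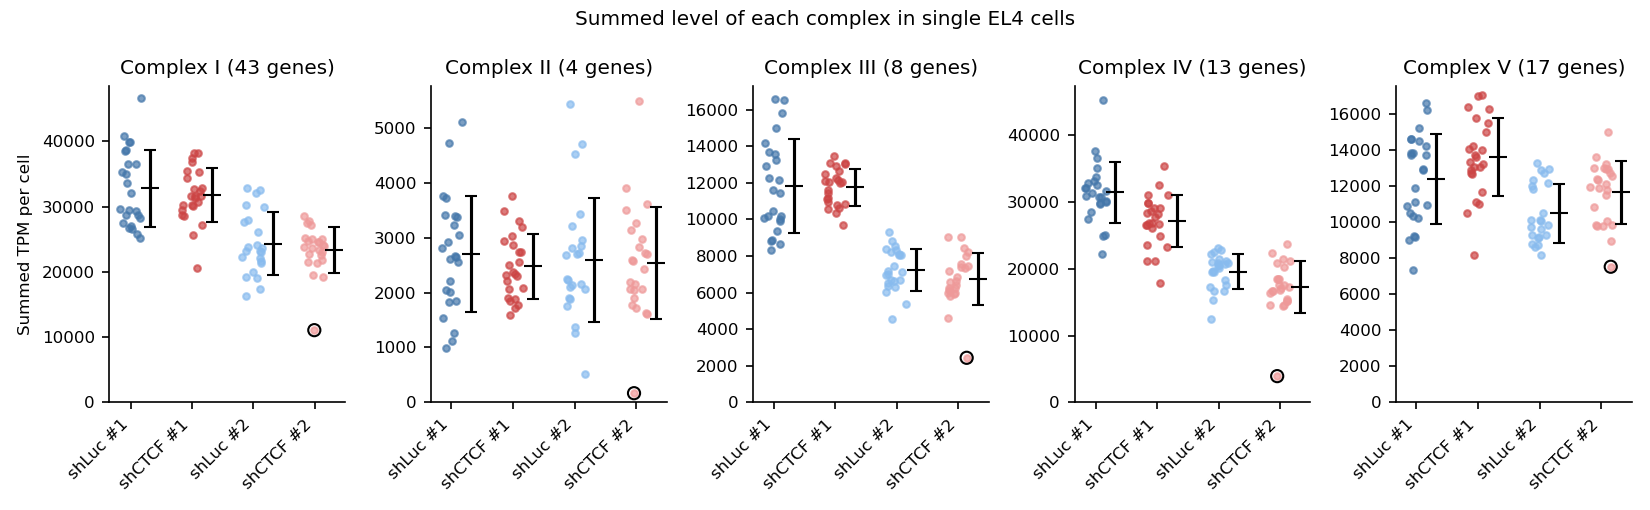
Summed TPM of each complex in single cells (vertical axis) by culture; points are cells, bars the mean and SD over cells, and the ring marks the cell of shCTCF #2 with the fewest of the 85 genes. Complexes I, III and IV sit lower in both cultures of experiment 2 than in experiment 1, while complex II sits at about the same level in all 4 cultures.

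By complex, the NADH dehydrogenase sum averaged 32778 TPM in shLuc #1, 31735 in shCTCF #1, 24332 in shLuc #2 and 23403 in shCTCF #2, a log2 difference of -0.051 between conditions. Complex II averaged 2701, 2478, 2595 and 2542 TPM in the same order, with a difference of -0.077. With all cells, both CTCF-KD cultures lay below both WT cultures. This rested on the cell of shCTCF #2 that stood apart, whose complex II sum was 167 TPM. Without it the shCTCF #2 average lay above that of shLuc #2, and the conditions overlapped. For complex III the averages were 11822, 11766, 7244 and 6734 TPM, with a difference of -0.056. Complex IV showed the widest gap, from 31410 to 27162 TPM in experiment 1 and from 19565 to 17263 TPM in experiment 2, a log2 difference of -0.21 and -0.18. Complex V went the other way, from 12406 to 13593 TPM and from 10491 to 11655 TPM, a difference of 0.13 and 0.15. With 2 cultures against 2, an exact two-sided permutation test cannot give a p below 0.33. The exact permutation p with all cells was 0.33 for complex II and 0.667 for each of the other 4. After Benjamini-Hochberg adjustment over the 5 it was 0.667 for every complex. Paired by experiment and with all cells, each of the 5 complexes kept its sign in both experiments. This gives an exact sign-flip permutation p of 0.5, the smallest that 2 pairs allow. Without the cell that stood apart, complex II turned positive in experiment 2, against its sign in experiment 1, and the other 4 kept theirs. On the scale of RPM (the reads of a gene over all reads of its cell), which does not divide by gene length, the differences of complexes I, II and III turned to 0.026, 0.0021 and 0.020, whereas those of IV and V kept their sign. Less of an mRNA per cell and less of it relative to the other mRNAs cannot be told apart from TPM.

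Gene by gene, none of the 85 passed limma at an adjusted p of 0.05 (0 of 11980 genes, 0% of all tested). The smallest adjusted p was 0.597 among the 85 and 0.585 over all genes. At an unadjusted p under 0.05, 2 were higher in CTCF-KD (Ndufaf2 and Ndufaf6; 4.79% of all genes) and 1 was lower (Cox6a2; 2.82% of all genes). Fitted with the experiment as a replicate block, 13 were higher (7.66% of all genes) and 10 lower (5.12% of all genes) at an unadjusted p under 0.05, again with none past the adjusted threshold (smallest adjusted p = 0.245 by limma). In both experiments 33 of the 85 were higher (30.1% of all genes) and 28 lower (26.7% of all genes). With all cells, both CTCF-KD cultures lay above both WT cultures for 18 (19.9% of all genes) and below both for 9 (16.9% of all genes). The median log2 difference was -0.0091 over the 85 and 0.038 over all genes. Of the 23 genes past an unadjusted 0.05 with the block, the higher ones were 7 of complex I, 1 of III, 1 of IV and 4 of V, and the lower ones 4 of complex I, 1 of III and 5 of IV. Values after each gene in the paragraphs that follow are mean ± SD over the cells of a culture, and differences are of log2(mean TPM + 1), CTCF-KD minus WT, over 2 cultures each.

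**Figure D2:**
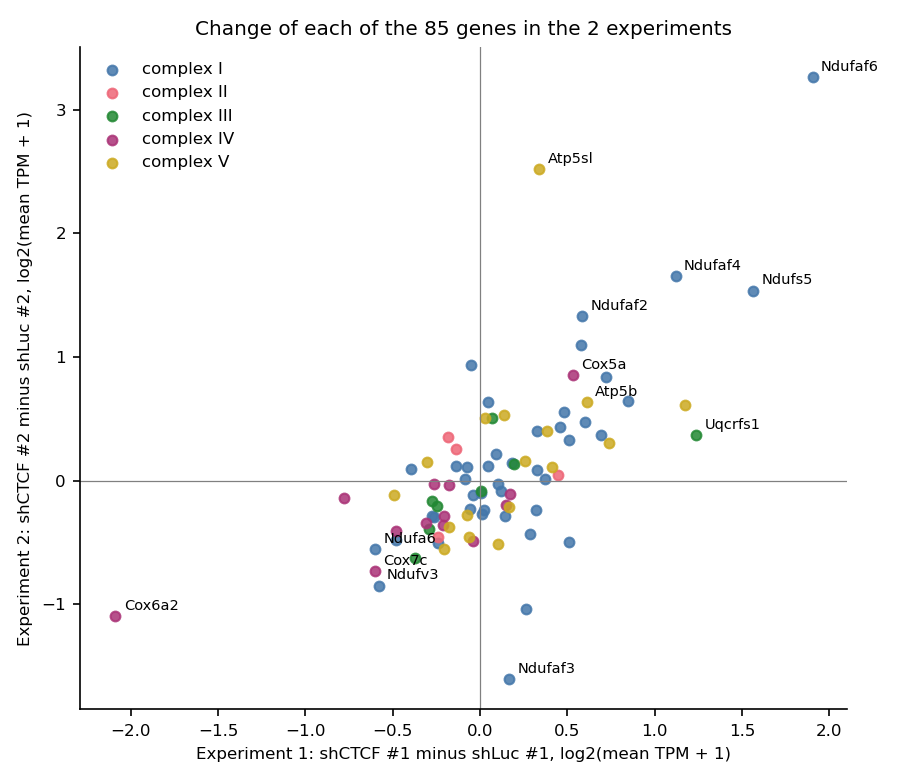
Difference of log2(mean TPM + 1) between CTCF-KD and WT for each of the 85 genes, experiment 1 on the horizontal axis and experiment 2 on the vertical axis, coloured by complex. Of the 13 complex IV genes 10 lie in the lower left part and only Cox5a in the upper right, and the points farthest from the centre are genes of low level such as Ndufaf6, Atp5sl and Cox6a2.

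Complex I has 7 nuclear core subunits, which carry the electron path, and many accessory subunits around them. Among the 7 core genes, 4 were higher in both experiments and 0 lower in both (30.1% and 26.7% of all genes), with a median difference of 0.084. Ndufs1, the largest core subunit, at chr1:63143596-63176833 (GENCODE M21 coordinates on GRCm38, here and for the other genes), averaged 116 ± 105 TPM in shLuc #1, 146 ± 114 in shCTCF #1, 148 ± 168 in shLuc #2 and 196 ± 167 in shCTCF #2. Its difference was 0.36 ± 0.36 (SE, adjusted p = 0.849 by limma), and each gap between conditions was smaller than the SD over cells. Ndufv1, which binds NADH, averaged 793 ± 734 TPM in shLuc #1, 844 ± 403 in shCTCF #1, 511 ± 449 in shLuc #2 and 593 ± 315 in shCTCF #2, with a difference of 0.15 ± 0.36 (SE, adjusted p = 0.947 by limma). Its WT and CTCF-KD cultures overlapped.

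Of the 29 accessory subunits of complex I, 11 were higher and 8 lower in both experiments (30.1% and 26.7% of all genes), with a median of -0.038. Ndufb8, a membrane-arm subunit at chr19:44548572-44555440 and the gene of complex I with the highest mean over all cells, averaged 3729 ± 1717 TPM in shLuc #1, 3505 ± 1161 in shCTCF #1, 2566 ± 708 in shLuc #2 and 2590.0 ± 979 in shCTCF #2. In both cultures of experiment 1 it lay below Ndufa3, an accessory subunit whose values are given with gene length. The conditions of Ndufb8 differed by -0.038 and overlapped. Ndufa6, at chr15:82350140-82354322, whose promoter with the NRF1 core is printed, averaged 1378 ± 650.1 TPM in shLuc #1, 909 ± 339 in shCTCF #1, 1254 ± 563 in shLuc #2 and 851 ± 302 in shCTCF #2. Both CTCF-KD cultures were below both WT cultures, and the difference was -0.58 ± 0.28 (SE, adjusted p = 0.696 by limma), with an unadjusted p of 0.00584 with the block. Ndufa1 and Ndufv3 had differences of -0.48 and -0.72, also lower in both experiments. In the other direction, Ndufa5, another accessory subunit, averaged 196 ± 139 TPM in shLuc #1, 324 ± 165 in shCTCF #1, 248 ± 231 in shLuc #2 and 443 ± 297 in shCTCF #2. Both CTCF-KD cultures were above both WT cultures, with 0.78 ± 0.33 (SE, adjusted p = 0.656 by limma). Ndufa8 and Ndufb7 differed by 0.52 and 0.42 and also separated the conditions. Ndufa11, whose promoter is printed, averaged 144 ± 104 TPM in shLuc #1, 234 ± 86.7 in shCTCF #1, 123 ± 109 in shLuc #2 and 159.5 ± 86.9 in shCTCF #2, again with each CTCF-KD culture above both WT cultures. Of these genes Ndufb8 was named for its level and Ndufa6 as one of the 3 lowest statistics, and the others were picked after their values were seen. Ndufs5 was listed at 0 in all 24 cells of shLuc #1 and had reads in 1 cell of shLuc #2, 3 cells of shCTCF #1 and 1 cell of shCTCF #2, too few to give a difference.

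The 7 assembly factors of complex I held little of its mRNA and averaged higher in CTCF-KD in each experiment. Their sum averaged 316 TPM in shLuc #1, 424 in shCTCF #1, 294 in shLuc #2 and 377 in shCTCF #2, a log2 difference of 0.42 in experiment 1 and 0.36 in experiment 2. Both CTCF-KD cultures were above both WT cultures, at the smallest exact permutation p the design allows, 0.33. Of the 7, 4 were higher in both experiments and 0 lower in both (30.1% and 26.7% of all genes). Ndufaf2, a chaperone of late assembly at chr13:108002715-108158623, averaged 83.5 ± 89.2 TPM in shLuc #1, 126 ± 115 in shCTCF #1, 62.2 ± 97.6 in shLuc #2 and 158 ± 117 in shCTCF #2. It had reads in 15 of 24 cells of shLuc #1, 20 of 24 cells of shCTCF #1, 11 of 23 cells of shLuc #2 and 21 of 24 cells of shCTCF #2, and its difference was 0.96 ± 0.38 (SE, adjusted p = 0.638 by limma). Ndufaf6, at chr4:11051045-11076205, averaged 2.69 ± 7.95 TPM in shLuc #1, 12.8 ± 23.4 in shCTCF #1, 0.51 ± 2.45 in shLuc #2 and 13.5 ± 35.8 in shCTCF #2. It had reads in only 3 of 24 cells of shLuc #1, 10 of 24 cells of shCTCF #1, 1 of 23 cells of shLuc #2 and 4 of 24 cells of shCTCF #2, so its difference of 2.58 ± 0.92 (SE, adjusted p = 0.61 by limma) rests on few cells. Ndufaf4 averaged 7.80 TPM in shLuc #1, 18.1 in shCTCF #1, 19.3 in shLuc #2 and 62.7 in shCTCF #2, and Ndufaf1 averaged 21.7 TPM in shLuc #1, 32.9 in shCTCF #1, 32.6 in shLuc #2 and 70.8 in shCTCF #2. Both were above WT in both experiments, while Ndufaf3 was 0.17 in experiment 1 and -1.61 in experiment 2.

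Complex II, succinate dehydrogenase, also belongs to the citric acid cycle, and all its subunits are nuclear. Sdha, the flavoprotein that oxidizes succinate, averaged 216 ± 283 TPM in shLuc #1, 295 ± 209.7 in shCTCF #1, 361 ± 419 in shLuc #2 and 373 ± 349 in shCTCF #2. Sdhb, the iron-sulfur subunit at chr4:140961203-140979193 and by a small margin the highest of the 4 in the mean over all cells, averaged 932 ± 557 TPM in shLuc #1, 848 ± 386 in shCTCF #1, 857 ± 681 in shLuc #2 and 1024 ± 445 in shCTCF #2. The difference of Sdhb was -0.14 in experiment 1 and 0.26 in experiment 2, opposite in sign. Sdhc, a membrane anchor, averaged 631 ± 503 TPM in shLuc #1, 556 ± 256 in shCTCF #1, 261 ± 251 in shLuc #2 and 333 ± 220.1 in shCTCF #2, and was -0.18 in experiment 1 and 0.35 in experiment 2. Sdhd, the other anchor, averaged 922 ± 507 TPM in shLuc #1, 780.2 ± 359 in shCTCF #1, 1116 ± 657 in shLuc #2 and 813 ± 471 in shCTCF #2, above Sdhb in shLuc #2. Sdhd was the only one of the 4 in which both CTCF-KD cultures were below both WT cultures, with -0.35 ± 0.28 (SE, adjusted p = 0.811 by limma).

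In complex III, the cytochrome bc1 complex, the conditions were again close. Uqcr11, a small subunit at chr10:80402997-80406830 whose promoter with the ETS site is printed, was the highest and averaged 4587 ± 1749 TPM in shLuc #1, 5239 ± 794 in shCTCF #1, 2047 ± 783 in shLuc #2 and 2249 ± 713 in shCTCF #2. The experiments differed by more than the conditions, which overlapped. Uqcrc1 and Uqcrc2, the core proteins that do not carry electrons, went in opposite directions. Uqcrc1 averaged 509 ± 408 TPM in shLuc #1, 534 ± 186 in shCTCF #1, 367 ± 206 in shLuc #2 and 520.1 ± 217 in shCTCF #2, with 0.29 ± 0.31 (SE, adjusted p = 0.868 by limma). Uqcrc2 averaged 432 ± 288 TPM in shLuc #1, 357 ± 196 in shCTCF #1, 721 ± 327 in shLuc #2 and 644 ± 279 in shCTCF #2, with -0.22 ± 0.42 (SE, adjusted p = 0.934 by limma). Uqcrfs1, the Rieske iron-sulfur protein, averaged 141 ± 201 TPM in shLuc #1, 335 ± 225 in shCTCF #1, 92.8 ± 117 in shLuc #2 and 119.8 ± 111 in shCTCF #2. It was 1.24 in experiment 1 and 0.37 in experiment 2 and overlapped between the conditions. Uqcrh, the hinge subunit, averaged 1686 TPM in shLuc #1, 1303 in shCTCF #1, 1517 in shLuc #2 and 984 in shCTCF #2, with both CTCF-KD cultures below both WT cultures.

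Complex IV, cytochrome c oxidase, had 10 of 13 genes lower and 1 higher in both experiments, beside 26.7% and 30.1% of all genes, and a median difference of -0.27. Cox6a1, the ubiquitous form of subunit VIa at chr5:115345642-115348981, averaged 11674 ± 2441 TPM in shLuc #1, 10329 ± 2712 in shCTCF #1, 5822 ± 1753 in shLuc #2 and 5680.2 ± 1468 in shCTCF #2. Its difference was only -0.11, although it held a large part of the sum. Cox4i1, the ubiquitous form of subunit IV, averaged 3956 ± 1213 TPM in shLuc #1, 3429 ± 781 in shCTCF #1, 3198 ± 1416 in shLuc #2 and 2619 ± 1094 in shCTCF #2. Lower values in CTCF-KD stood in both experiments, -0.21 in experiment 1 and -0.29 in experiment 2, with an adjusted p of 0.884 by limma. Ndufa4 averaged 3629 ± 1295 TPM in shLuc #1, 3021 ± 937 in shCTCF #1, 2392 ± 911 in shLuc #2 and 2347 ± 759.9 in shCTCF #2, and Cox7a2, the ubiquitous form of subunit VIIa, averaged 991 ± 444 TPM in shLuc #1, 962 ± 318 in shCTCF #1, 819 ± 266 in shLuc #2 and 584 ± 197 in shCTCF #2. Their differences were -0.15 and -0.27. Cox7c, at chr13:86044816-86046904, averaged 419.7 ± 168 TPM in shLuc #1, 276 ± 111 in shCTCF #1, 300.1 ± 164 in shLuc #2 and 179.9 ± 116 in shCTCF #2. Both CTCF-KD cultures were below both WT cultures, with -0.67 ± 0.37 (SE, adjusted p = 0.743 by limma). Cox6b1, Cox6c and Cox8a, small subunits of high level, were lower in both experiments as well, with differences of -0.45, -0.33 and -0.28.

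Cox5a was the exception among the complex IV genes. This subunit, at chr9:57521274-57532426, averaged 370.1 ± 253 TPM in shLuc #1, 536 ± 233 in shCTCF #1, 313 ± 184 in shLuc #2 and 566 ± 237 in shCTCF #2. Both CTCF-KD cultures were above both WT cultures, and the difference was 0.69 ± 0.29 (SE, adjusted p = 0.656 by limma). Its partner Cox5b averaged 722 TPM in shLuc #1, 799.9 in shCTCF #1, 413 in shLuc #2 and 359.6 in shCTCF #2, with overlap between conditions. Cox7a2l averaged 178 ± 124 TPM in shLuc #1, 103 ± 61.7 in shCTCF #1, 112 ± 112 in shLuc #2 and 101 ± 85.7 in shCTCF #2, with both CTCF-KD cultures below both WT cultures. Cox6a2, the muscle form of subunit VIa at chr7:128205435-128206387, averaged 121 ± 399 TPM in shLuc #1, 27.7 ± 99.3 in shCTCF #1, 60.2 ± 249.6 in shLuc #2 and 27.7 ± 68 in shCTCF #2. It had reads in only 5 of 24 cells of shLuc #1, 4 of 24 cells of shCTCF #1, 4 of 23 cells of shLuc #2 and 8 of 24 cells of shCTCF #2, up to 1919 TPM in 1 cell of shLuc #1, so the mean follows a few cells. Its difference was -1.59 ± 0.52 (SE, adjusted p = 0.597 by limma) on the mean of TPM and 0.050 on the mean of log2(TPM + 1) over cells.

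Complex V, the ATP synthase, has a catalytic F1 part and a stalk and ring in the membrane. Of the 17 genes counted with it, 9 were higher and 5 lower in both experiments, beside 30.1% and 26.7% of all genes, and the median difference was 0.21. Among them are Atp5sl, one of the higher, and Atp5s, one of the lower, which are not subunits. Atp5b, the catalytic beta subunit at chr10:128083273-128090391, averaged 1069.8 ± 616 TPM in shLuc #1, 1633 ± 571 in shCTCF #1, 1115 ± 791 in shLuc #2 and 1732 ± 629 in shCTCF #2. Both CTCF-KD cultures were above both WT cultures by nearly the same amount in each experiment, with 0.62 ± 0.27 (SE, adjusted p = 0.664 by limma) and, with the block, an adjusted p of 0.245 by limma. Atp5a1, the alpha subunit, averaged 954 ± 416 TPM in shLuc #1, 1051 ± 436 in shCTCF #1, 770.0 ± 289.9 in shLuc #2 and 1109.8 ± 412 in shCTCF #2, also above WT in both, with 0.33 ± 0.29 (SE, adjusted p = 0.82 by limma). The 3 genes for the c subunit of the ring encode the same mature peptide behind different import sequences, and they differed in level. Atp5g3 averaged 1118 ± 670.2 TPM in shLuc #1, 1139 ± 360.3 in shCTCF #1, 896 ± 648 in shLuc #2 and 1270.3 ± 447 in shCTCF #2. Atp5g1 averaged 81.7 ± 63.3 TPM in shLuc #1, 185 ± 81 in shCTCF #1, 163 ± 116 in shLuc #2 and 249 ± 136 in shCTCF #2, with each CTCF-KD culture above both WT cultures. Atp5g2 averaged 10.7 ± 18.3 TPM in shLuc #1, 12.1 ± 14.9 in shCTCF #1, 22.1 ± 21.3 in shLuc #2 and 18.9 ± 24.4 in shCTCF #2, and was 0.17 in experiment 1 and -0.21 in experiment 2. The differences of Atp5g3 and Atp5g1 were 0.26 and 0.89. Of the other subunits, Atp5j averaged 390.0 ± 256 TPM in shLuc #1, 652 ± 318 in shCTCF #1, 464 ± 236 in shLuc #2 and 574 ± 329 in shCTCF #2, both CTCF-KD cultures lying above both WT cultures. For Atp5c1 and Atp5h, with differences of -0.28 and -0.26, both CTCF-KD cultures lay below both WT cultures with all cells. Atp5c1 was at 0 in the cell of shCTCF #2 that stood apart. Without that cell its shCTCF #2 mean lay above that of shLuc #1, and its conditions overlapped.

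The gap between the experiments was related to gene length. The difference between culture 2 and culture 1 correlated with log2 length across the 85 genes, with a Pearson r of 0.42 in shLuc and 0.42 in shCTCF (Spearman 0.40 and 0.42), as a description across genes that share the same libraries. The 28 genes under 600 bases had a median difference of -0.57 in shLuc and -0.57 in shCTCF, against -0.12 and -6.9e-05 for the 57 longer ones. Over 3222 genes with a mean TPM above 50 the r was 0.19 and 0.21. Among these, the 165 genes under 600 bases had a median difference of -0.44 in shLuc and -0.40 in shCTCF, against 0.23 and 0.17 for the 3057 longer ones. The shift of short genes was thus not particular to the respiratory genes. Ndufa3, of 349 bases, averaged 4504 ± 1656 TPM in shLuc #1, 3746 ± 1055 in shCTCF #1, 1159.9 ± 365 in shLuc #2 and 945 ± 461 in shCTCF #2, and Atp5k, of 292 bases, averaged 1384 ± 481 TPM in shLuc #1, 1120.3 ± 457 in shCTCF #1, 443 ± 227 in shLuc #2 and 492 ± 242 in shCTCF #2. Both stood lower in both cultures of experiment 2 than in both cultures of experiment 1. The sum of complex II, whose 4 genes are between 1079 and 2859 bases long, differed between the experiments by -0.057 in shLuc and 0.037 in shCTCF. This sum joins genes that moved in opposite directions. By the means given with complex II, Sdhc was lower and Sdha higher in culture 2 than in culture 1 of each condition. Between the conditions, r with length was 0.24 over the 85 genes and -0.16 over the 3222 genes.

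**Figure D3:**
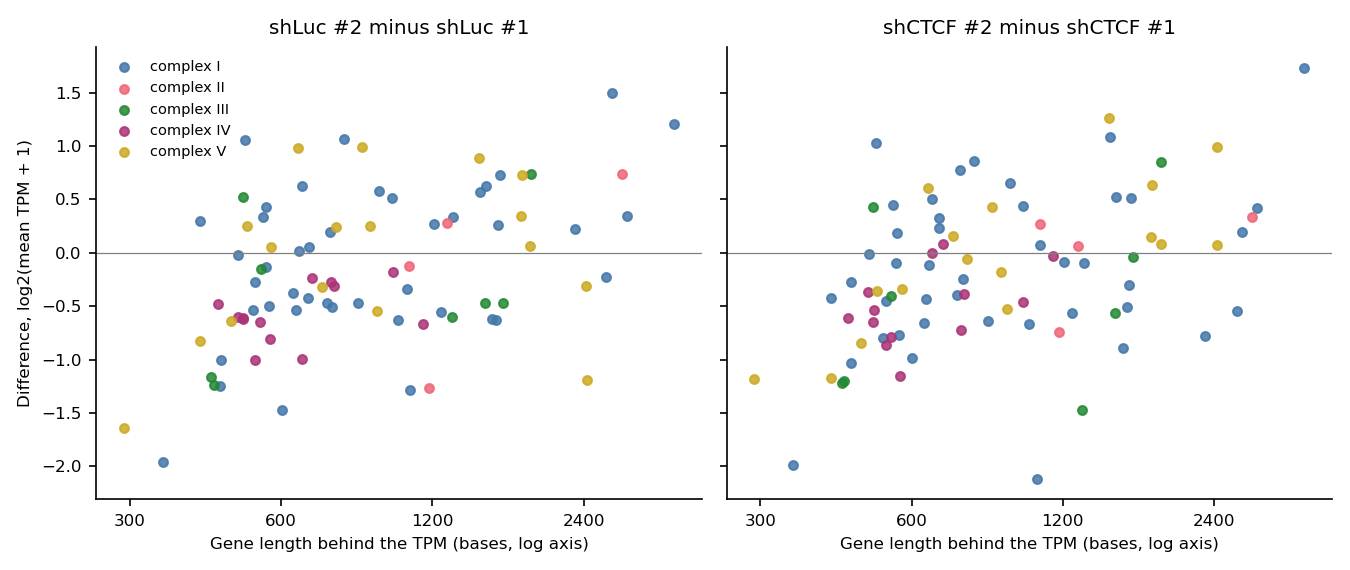
Difference of log2(mean TPM + 1) between culture 2 and culture 1 of each condition (vertical axis) against the gene length behind the TPM (bases, log axis) for the 85 genes. Genes under 600 bases lie mostly below 0 in both panels, with medians of -0.57.

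The second question was whether cell-to-cell variation differed. The SD over cells of log2(TPM + 1) was used for the spread. Respiratory genes varied less between cells than genes at large: their median SD was 1.11 in shLuc #1, 0.71 in shCTCF #1 and 1.20 in shLuc #2, against 2.43, 2.17 and 2.61 over all genes tested, which lie lower in level. In shCTCF #2 the median SD was 1.78 with all 24 cells and 0.77 without the cell that stood apart. Of 83 genes tested (Ndufaf6 and Ndufs5 were too low), none passed limma at an adjusted 0.05, against 0.663% of all 7843 genes. At an unadjusted p under 0.05, 17 had a lower spread in CTCF-KD (12.8% of all genes) and 0 a higher one (2.46% of all genes). The spread was lower in both experiments for 39 genes (49.9% of all genes) and higher in both for 10 (14.7% of all genes).

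Without the cell of shCTCF #2 with 43 of the 85 genes, more genes had a lower spread in CTCF-KD. The spread was lower in both experiments for 53 of the 83 (53.4% of all genes), 31 passed an unadjusted 0.05 (16.8% of all genes), and 7 passed an adjusted 0.05 as lower in CTCF-KD (2.98% of all genes). The cell was chosen after seeing the data, by the reads of these same genes, and no WT cell was left out. Its removal takes values at 0 from CTCF-KD only, so the counts and p-values without it describe the data and are no support for a lower spread. The 7 were Uqcrc1, Atp5j, Ndufv1, Ndufb5, Ndufa5, Sdhc and Ndufb7. For Uqcrc1 the SD was 2.90 in shLuc #1, 0.49 in shCTCF #1, 2.08 in shLuc #2 and 1.91 in shCTCF #2, or 0.53 without that cell, with an adjusted p of 0.0169 by limma without it and 0.24 with it. Uqcrc1 had reads in 22 of 24 and 22 of 23 WT cells and in 24 of 24 and 23 of 24 CTCF-KD cells, and cells at 0 enter the SD. For Atp5j the SD was 2.03 in shLuc #1, 0.79 in shCTCF #1, 2.02 in shLuc #2 and 0.73 in shCTCF #2, or 0.64 without that cell, and the adjusted p by limma was 0.0282 without it and 0.0867 with it. Atp5j had reads in 23 of 24 and 22 of 23 WT cells and in every CTCF-KD cell. Its CV of linear TPM (SD over mean) fell from 0.66 to 0.49 in experiment 1 and rose from 0.51 to 0.57 in experiment 2. Atp5j was the gene with the largest fall in the t statistic with all cells. At the other end Ndufa3 had an SD of 0.56, 0.53, 0.42 and 2.12 in the same order, which became 0.72 in shCTCF #2 without that cell. The part of cells at 0 in these differences was not tested. The median difference in spread was -0.064 over the 83 genes and -0.23 over all genes with all cells, and -0.27 and -0.26 without that cell.

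**Figure D4:**
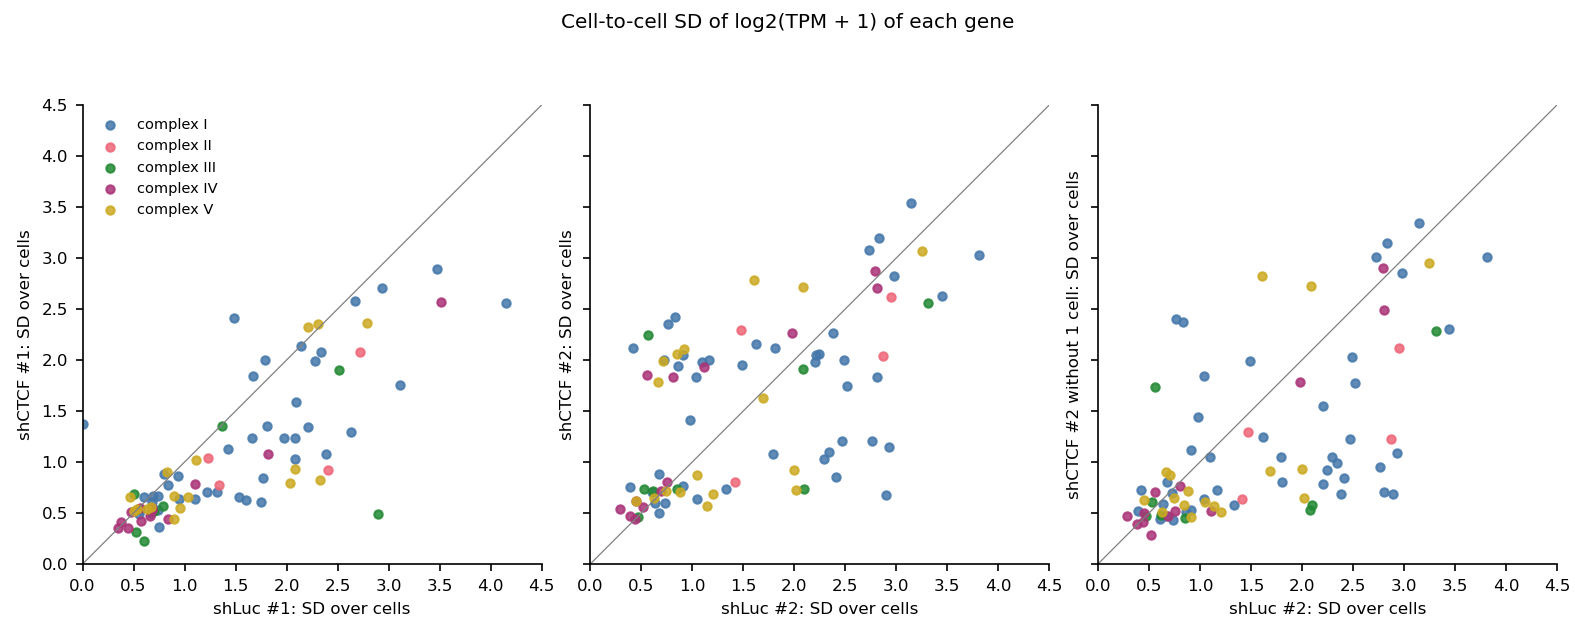
SD over cells of log2(TPM + 1) of each of the 85 genes in CTCF-KD (vertical axis) against WT (horizontal axis) for experiment 1, experiment 2, and experiment 2 without the cell of shCTCF #2 that stood apart; the line marks equal SD. Most points lie below the line in the left panel, and the group near 2 on the vertical axis of the middle panel drops toward 0.5 in the right panel.

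Detection was compared after each cell was thinned to 80000 reads, which left out 1 cell of shCTCF #2 and leaves 94 cells. The share of the 85 genes with a read per cell averaged 85% ± 3.69 in shLuc #1, 89.4% ± 3.4 in shCTCF #1, 84.2% ± 4.27 in shLuc #2 and 89% ± 2.67 in shCTCF #2 (SD over cells). CTCF-KD was 4.61 percentage points above WT, and both CTCF-KD cultures were above both WT cultures, at the smallest exact permutation p, 0.33. Unthinned, the gap was 2.91 points with all 95 cells and 3.75 points without the cell that stood apart. Over all genes tested the gap after thinning was 8.58 points, from 35.3% and 34.7% in WT to 43.9% and 43.3% in CTCF-KD. Of the 85 genes, 22 were seen in a larger share of cells in both CTCF-KD cultures than in both WT cultures (38.9% of all genes) and 1 in a smaller share (4.5% of all genes). After thinning, 47 of the 85 had a read in every cell of shLuc #1 and 43 in every cell of shLuc #2. A gene in every cell of a WT culture cannot be called higher, so the gap and the count cannot be compared directly with those of all genes. The 22 include the assembly factors Ndufaf1, Ndufaf2, Ndufaf3, Ndufaf4, Ndufaf6 and Ndufaf7, with Sdha, Sdhc, Uqcrc1, Uqcrfs1 and Cox5a. For Ndufaf4 the thinned count was 10 of 24 cells of shLuc #1, 20 of 24 of shCTCF #1, 8 of 23 of shLuc #2 and 22 of 23 of shCTCF #2. The gene seen in fewer cells was Atp5l, whose sequence is largely shared with other transcripts.

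**Figure D5:**
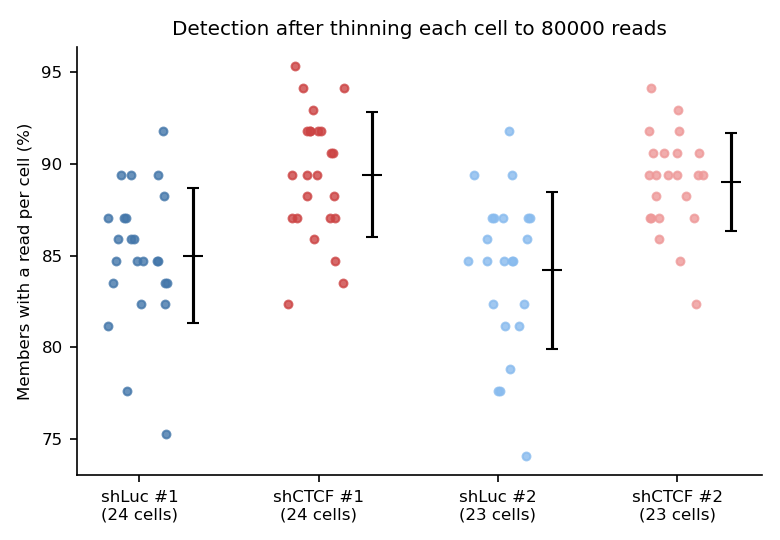
Share of the 85 genes with at least 1 read per cell (percent, vertical axis, which does not start at 0) after thinning to 80000 reads, by culture; points are cells and bars the mean and SD over cells. Both shCTCF cultures average near 89%, and both shLuc cultures near 85%, with cells of the conditions overlapping.

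Across the cells of shLuc #1, shCTCF #1 and shLuc #2, sums of the complexes were at most moderately related. These values are a description over cells that share a library. In shCTCF #2 the Pearson r ran from 0.47 (III and V) to 0.89 (II and IV) over all 24 cells. Without the cell that stood apart it ran from 0.027 (III and V) to 0.50 (I and II). Between complexes I and IV the Pearson r was 0.63 in shLuc #1 (24 cells), 0.07 in shCTCF #1 (24 cells) and 0.30 in shLuc #2 (23 cells). In shCTCF #2 it was 0.85 over 24 cells and 0.37 without the cell that stood apart. Between complexes I and V the r was 0.50, 0.29 and 0.15 in the same 3 cultures, and 0.58 or 0.22 in shCTCF #2. The sum of all 85 genes had an r of 0.06, 0.13 and 0.29 with the reads of the cell in these 3 cultures, and of 0.33 in shCTCF #2, which became -0.23 without the cell that stood apart.

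Genes that work with the complexes but lie outside the named families were read in the same fit, and none passed the adjusted threshold. Cyc1, the cytochrome c1 subunit of complex III, averaged 631 TPM in shLuc #1, 979 in shCTCF #1, 341 in shLuc #2 and 812 in shCTCF #2. Its difference was 0.94, with an adjusted p of 0.636 by limma, and both CTCF-KD cultures were above both WT cultures. Cycs, cytochrome c itself, was listed at 0.89, 0.51, 0.22 and 2.04 TPM in the same order, from reads in 7, 4, 1 and 5 cells. Only uniquely mapped reads were counted, and sequence that Cycs shares with other genes was not checked. These values therefore do not show that its mRNA was scarce. Of 38 other assembly factors 37 were tested, of which 15 were higher and 12 lower in both experiments (30.1% and 26.7% of all genes), with a median difference of 0.26 and with 4 higher and 0 lower at an unadjusted 0.05 (4.79% and 2.82% of all genes). Bcs1l, which inserts the Rieske protein into complex III, averaged 8.69 TPM in shLuc #1, 42.7 in shCTCF #1, 17.4 in shLuc #2 and 61.4 in shCTCF #2, with a difference of 1.97 and an adjusted p of 0.597 by limma. The lowest statistic was that of Sdhaf3, a factor for complex II, with a difference of -0.59. Of 15 regulators tested, among them Nrf1, Gabpa, Yy1 and Tfam, 6 were higher and 5 lower in both experiments (30.1% and 26.7% of all genes). Tfb1m, a mitochondrial rRNA methyltransferase, had the highest statistic, with a difference of 2.49 from reads in 1, 7, 1 and 4 cells of shLuc #1, shCTCF #1, shLuc #2 and shCTCF #2. Polg, the mitochondrial DNA polymerase, had the lowest, averaging 19.3, 5.55, 27.3 and 6.65 TPM in that order, a difference of -1.76. Of 16 enzymes of the citric acid cycle 9 were higher and 2 lower in both experiments (30.1% and 26.7% of all genes). Idh3a, the catalytic subunit of NAD-dependent isocitrate dehydrogenase, averaged 95.3 TPM in shLuc #1, 230 in shCTCF #1, 184 in shLuc #2 and 421 in shCTCF #2, while Idh3g, a regulatory subunit, had a difference of -0.36. A list of 7 genes held carriers and porins, which move ATP, ADP and phosphate across the membranes, and Atpif1, which inhibits the ATP synthase. Higher in both experiments were the porin Vdac2, with a difference of 0.41, and Atpif1, at 0.32 in experiment 1 and 0.0010 in experiment 2, and lower in both was Vdac1, with -0.34. Of the 11 T-cell markers 1 (Lat) was higher and 6 lower in both experiments (30.1% and 26.7% of all genes). Cd3g had the lowest statistic, with a difference of -0.66, and the median over the 11 was -0.20. The part of these markers in the values of the complexes was not tested.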

How the data were processed

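Single EL4 cells were profiled by RNA-seq, with 24 cells from each of 4 cultures. The authors aligned reads with STAR to GRCm38, counted uniquely mapped reads per gene and deposited TPM values of 96 cells. Per the study's methods, wells that did not hold a single cell were removed and cells were chosen for quality before deposit; the study's minimum of genes per cell had not been applied to the deposited table. Cells with fewer than 3000 genes were left out (1 cell). Whole reads were recovered from the TPM steps (100% of 504524 values within 0.001 of a whole read) and used only for depth, for thinning to 80000 reads per cell and for RPM, the reads of a gene scaled to the total of its cell. Reads carry no molecular identifiers, so limits for a count of 0 (3 counts) cover counting error only.

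Levels were log2(mean TPM over cells + 1) per culture, with a pseudocount of 1 that understates changes of low genes. Limma 3.58.1 (R 4.3.3), with a trend, compared 2 cultures per condition over 11980 genes that exceeded 1 on this scale in 2 or more cells, with Benjamini-Hochberg adjustment at 0.05. Spread was the SD of log2(TPM + 1) over cells, tested for genes with a mean above 1. Sums and detection were compared by exact two-sided permutation of 4 cultures. The fits were tested on simulated data, with the noise of each gene capped and no shift between experiments. That test therefore does not show how they behave with the spread of these cultures. P-values measure the spread between these cultures. The culture number pairs the samples, since the study's methods give it as the first or second experiment, and deviations from the condition means of same-numbered cultures had a correlation of 0.73 over 83 of the genes and 0.27 over 7843 genes.

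The members, lists and tests were chosen with earlier results of these data known. Genes named by rule were the catalytic and best-known subunits of each complex and their isoforms, the 3 highest and 3 lowest limma statistics, the highest member of each complex, and the largest rise and fall in the statistic of spread; others are named as picked after their values were seen or to fill a group. One gene of the first kind is not reported here. Alternatives changed the scale, pseudocount, filters, scaling, cells, block and cultures. Coordinates are from GENCODE M21 and promoters from RefSeq, both on GRCm38.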

Additional observations from a re-analysis of the deposited data

Results flagged for a closer look

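The following values point in opposite directions in experiment 1 and experiment 2, which is what singled them out, and the difference between the experiments was not tested. Values are log2 differences, CTCF-KD minus WT. Ctcf, the targeted gene, was -1.85 in experiment 1 and 0.27 in experiment 2. Among the members, Sdhb was -0.14 and 0.26, Sdhc -0.18 and 0.35, Atp5g2 0.17 and -0.21, and Ndufb8 -0.089 and 0.013. The median over the 4 genes of complex II was -0.16 and 0.15, and the median over all 85 genes 0.048 and -0.029.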

How the results depend on the processing

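The number of members past an adjusted 0.05 for level was 0 under each alternative run. At an unadjusted 0.05, where 2 were higher and 1 lower, the counts were 10 and 0 with the mean of log2(TPM + 1) over cells, 1 and 0 in cells with 4500 to 6000 genes and with RPM, 1 higher with a mean TPM above 10, and 13 and 10 with the replicate block, the paired fit. Leaving out 1 culture gave 0 to 1 higher and 0 to 1 lower. The median log2 difference of -0.0091 became 0.062 with the mean of log2(TPM + 1) and ran from -0.12 to 0.19 without 1 culture; culture 1 or 2 of a condition then stands against both of the other. The summed differences of complexes I, II and III and of all members became 0.026, 0.0021, 0.020 and 0.041 in RPM, an alternative added after seeing the data, which does not divide by gene length. Without 1 culture they ran from -0.27 to 0.17 for complex I, -0.46 to 0.35 for III, -0.54 to 0.15 for IV and -0.32 to 0.19 for all members, turning positive without shLuc #1 or without shCTCF #2. The block left every sum and the detection difference of 4.61 points as they were and, apart from these counts and the one given for spread, changed no other call.

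For spread, 3 members were lower at an adjusted 0.05 with the CV of linear TPM and 7 without the cell of shCTCF #2 with the fewest members, which was chosen after seeing the data; the lower members at an unadjusted 0.05 were 31 without that cell and 2 in cells with 4500 to 6000 genes. The higher members at that level were 1 with the block and 2 after thinning, also added after seeing the data. Higher in both experiments were 5 with the CV and 23 in cells with 4500 to 6000 genes, where 23 were lower in both. The median spread difference became -0.27 with the CV, -0.27 without that cell and -0.27 after thinning. Without 1 culture the counts at an adjusted 0.05 ran from 0 to 2 lower and 0 to 6 higher, those at an unadjusted 0.05 from 11 to 17 lower and 0 to 14 higher, and the median from -0.37 to 0.079; the 6 higher came without shCTCF #1, where shCTCF #2, with the cell that stood apart, is alone and is assumed to vary like the WT cultures.

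Among named genes, Cox6a2 turned to 0.050 with the mean of log2(TPM + 1), Ndufb8 to 0.011 in RPM, and Atp5g2 to 0.0053 with no filter on cells, 0.062 in cells with 4500 to 6000 genes, 0.0052 without the cell of shCTCF #2 and 0.030 in RPM. The spread of Atp5j turned to 0.0091 in cells with 4500 to 6000 genes. Without 1 culture these differences changed sign and ran from -0.16 to 0.47 for Ndufv1, -0.31 to 0.23 for Ndufb8, -1.27 to 0.71 for Ndufa3, -0.12 to 0.62 for Sdha, -0.077 to 0.20 for Sdhb, -0.55 to 0.72 for Sdhc, -0.64 to 0.20 for Uqcrc2, -0.45 to 0.77 for Uqcr11, -0.61 to 0.40 for Cox6a1, -0.45 to 0.15 for Ndufa4, -0.62 to 0.095 for Cox7a2 and -0.52 to 0.47 for Atp5g2. The causes were not tested. The number of cultures and the reads per cell, fewest in shCTCF #2, limit the precision of single genes.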
